A study of Mus musculus with 24 samples.

Results

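The 10 genes of polyamine metabolism, grouped with the spermidine synthase gene Srm, were followed across the livers of 24 mice. The members were Srm, Sms, Odc1, Amd1, Sat1, Azin1, Oaz1, Oaz2, Paox and Dhps. All 10 were found by Ensembl identifier among the 21755 genes of the p16-3MR table. In the wild-type table, whose 12643 labels lack 9 lower-case letters, 6 of the 10 could be read: Odc1, Azin1, Oaz1, Oaz2, Paox and Dhps each had a label that fitted 1 mouse symbol. The labels that Srm, Sms, Amd1 and Sat1 would carry fitted 7, 16, 3 and 5 symbols, so these genes were not analysed in wild-type mice. Srm was selected on its level in GCV-treated against VEH-treated p16-3MR females, so the values from that contrast are given here as a description and without a test.

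The p16-3MR mice carry a 3MR reporter cassette under the p16Ink4a promoter on a bacterial artificial chromosome. One product of the cassette is a viral thymidine kinase, which turns ganciclovir (GCV) into a toxin inside cells that use that promoter. Each genotype had 4 groups of 3 mice, in which females and males received either GCV or vehicle (VEH). The p16-3MR mice started treatment at an age of 16 to 18 months and were about 28 months old at collection. The wild-type (WT) mice, which lack the cassette, were treated for 3 months from 6 months of age. Treatment ran for 5 consecutive days of each month, at 150 mg/kg GCV by the sample labels and 25 mg/kg by the study's methods. Genotype, age and batch differed together (batch 1 for p16-3MR, batch 2 for WT) and cannot be told apart, so each genotype was tested within its own table.

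Polyamines are small positively charged molecules that bind nucleic acids and are needed for growth and translation. Ornithine decarboxylase makes putrescine, spermidine synthase turns putrescine into spermidine, and spermine synthase turns spermidine into spermine, with the added aminopropyl groups drawn from decarboxylated S-adenosylmethionine. Acetylation by the Sat1 enzyme followed by oxidation by the Paox enzyme runs the route backwards, antizymes send ornithine decarboxylase to the proteasome, and spermidine is also the donor for hypusine, a modified residue of the translation factor eIF5A. The liver is a major site of both S-adenosylmethionine synthesis and the urea cycle, which supplies ornithine.

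The libraries were Smart-3SEQ, which reads the 3′ ends of transcripts, and held 5005760 to 7160172 counts per p16-3MR liver and 3084517 to 5667904 per WT liver. Levels are CPM (counts per 1000000 of TMM-scaled library size) and were compared between livers, not between genes. The labelled tissue was borne out by its markers: all 8 hepatocyte genes on the list were detected in every p16-3MR liver, with a summed level of 24800 to 157000 CPM, and so were the 3 that could be read in WT livers. In 3 p16-3MR livers the makeup of the library stood apart. In GCV-treated female 33, 64% of the counts came from mitochondrially encoded genes, against 12.3% to 22.4% in the other p16-3MR livers, and its TMM factor was 0.259. GCV-treated male 32 and VEH-treated male 24 had the highest summed level of 5 Kupffer cell markers, 2820 and 1450 CPM, and the lowest summed hepatocyte level, 24800 and 39700 CPM. In WT livers the 2 Kupffer markers that could be read summed to 74.1 to 140 CPM. In bulk liver, fewer cells of a type and less RNA per cell cannot be told apart.

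Srm (GRCm38 chr4:148591503-148594993, plus strand), the gene of spermidine synthase, was highest in GCV-treated p16-3MR females. The level was 23.5, 14.7 and 22.8 CPM in GCV-treated females 31, 33 and 35, and 7.91, 6.51 and 6.29 CPM in VEH-treated females 27, 28 and 29. The female groups did not overlap, and the fitted change was 2.97-fold, or 1.57 on the log2 scale (SE 0.43). Group means in descending order were 20.3 ± 4.91 CPM in GCV-treated females, 9.66 ± 5.86 in VEH-treated males, 8.68 ± 2.40 in males given GCV and 6.90 ± 0.877 in females given VEH (SD, n = 3 each). The last 3 groups overlapped in this order. The highest male was VEH-treated male 25 at 16.4 CPM, above GCV-treated female 33.

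The value of female 33 rested on 19 Srm counts and on its scaling. Without the TMM factor, on total counts alone, liver 33 had 3.80 CPM, below the 7.07 to 8.24 of the VEH-treated females, whereas livers 31 and 35 had 20.0 and 22.6 CPM. With library totals in place of TMM factors the fitted log2 fold change was 1.04 while the median gene moved to -0.58. With TMM factors, leaving out 1 liver at a time gave 1.46 to 1.68. Without liver 33, the mean of GCV-treated females was 23.2 CPM. The summed Kupffer markers were 93.6 to 279 CPM in GCV-treated females and 267 to 727 CPM in VEH-treated females, and all 5 markers were above 0 in each. The summed level of 5 stellate cell markers was 144 to 251 CPM with GCV and 255 to 322 CPM with VEH, without overlap, and that of 5 sinusoidal endothelial markers was 99.1 to 169 CPM and 127 to 214 CPM. Their part in the Srm difference was not tested.

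In p16-3MR males, GCV was not associated with a detectable difference in Srm. The level was 5.92, 9.95 and 10.2 CPM in GCV-treated males 30, 32 and 34, against 6.30, 16.4 and 6.25 CPM in VEH-treated males 24, 25 and 26. The groups overlapped, the log2 fold change was -0.15 (SE 0.43, 95% interval -1.06 to 0.77), and the adjusted p was 1 by edgeR's quasi-likelihood test. Without VEH-treated male 25 the fitted change was 0.47 on the log2 scale. The female change exceeded the male change by 1.72 on the log2 scale (SE 0.61), a value that shares the selecting contrast and is therefore descriptive. It was 1.103 without male 25.

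The genes whose log2 CPM followed Srm most closely over the 12 p16-3MR livers, among 12408 other genes with a mean of at least 10 counts, were Naa30 (Pearson r = 0.899), Rbm10 (0.883), Ddx49 (0.874), Washc3 (0.871) and Rbm48 (0.869). These are descriptions of 12 livers that share library type and scaling and include the female livers on which Srm was selected. Without liver 33 their r lay between 0.867 and 0.898, and Ddx49 was the gene of this group that stayed among the 5 closest.

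**Figure D1:**
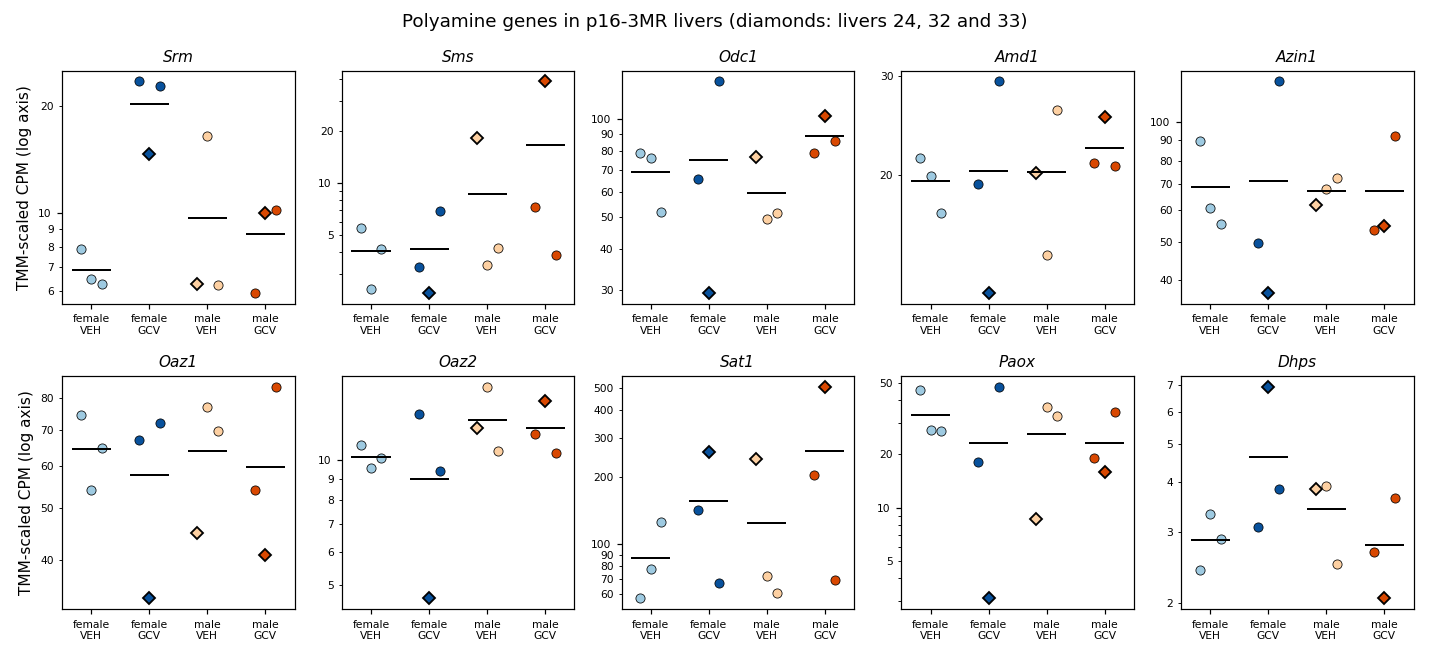
TMM-scaled CPM (log axis) of the 10 members in 12 p16-3MR livers, by sex and treatment. Points are livers, bars are means of 3, and diamonds are livers 24, 32 and 33. Srm in GCV-treated females lay at 14.7 to 23.5 CPM, above the 6.29 to 7.91 CPM of VEH-treated females, while Sms and Sat1 peaked in liver 32.

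The other synthase, Sms (GRCm38 chrX:157443855-157492287, minus strand), did not follow Srm. Its level was 3.28, 2.32 and 6.88 CPM in GCV-treated females and 5.50, 2.46 and 4.15 CPM in VEH-treated females. In males it was 7.33, 38.7 and 3.84 CPM with GCV and 18.3, 3.39 and 4.22 CPM with VEH. The high values belonged to livers 32 and 24, whose summed Kupffer (2820 and 1450 CPM), sinusoidal endothelial (424 and 265 CPM) and stellate markers (490 and 397 CPM) were also highest, and the remaining 10 livers lay between 2.32 and 7.33 CPM. Sms in liver 33 rested on 3 counts.

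Sat1 (GRCm38 chrX:155213132-155216449, minus strand), whose enzyme acetylates spermidine and spermine, the rate-limiting step of their breakdown, was also highest in liver 32. Its level was 204, 508 and 69.5 CPM in GCV-treated males and 241, 72.3 and 60.5 CPM in VEH-treated males. In females it was 142, 258 and 66.9 CPM with GCV and 57.4, 77.8 and 126 CPM with VEH. The 258 CPM of liver 33 rested on its TMM factor: on total counts alone it was 66.7 CPM, within the 59.8 to 144 CPM of VEH-treated females, and the fitted female change was 0.83 with TMM factors and -0.18 with library totals. The treatment difference in males was 1.06 on the log2 scale (SE 0.73, adjusted p = 1, edgeR). It was 0.081 without GCV-treated male 32 and 2.01 without VEH-treated male 24, so single livers set its size.

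Paox (GRCm38 chr7:140115799-140137224, plus strand), the oxidase that acts on acetylated polyamines, was low in livers 33 and 24. Its level was 17.9, 3.09 and 47.8 CPM in GCV-treated females, 45.6, 27.2 and 27.1 CPM in VEH-treated females, 18.9, 15.9 and 34.6 CPM in GCV-treated males and 8.64, 36.8 and 32.7 CPM in VEH-treated males. The lowest values were those of livers 33, 24 and 32, and Paox in liver 33 rested on 4 counts. Paox overlaps Echs1 on the opposite strand, so its counts are uncertain if strand was not used in counting. The part of cell composition in the Sat1, Sms and Paox values was not tested.

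**Figure D2:**
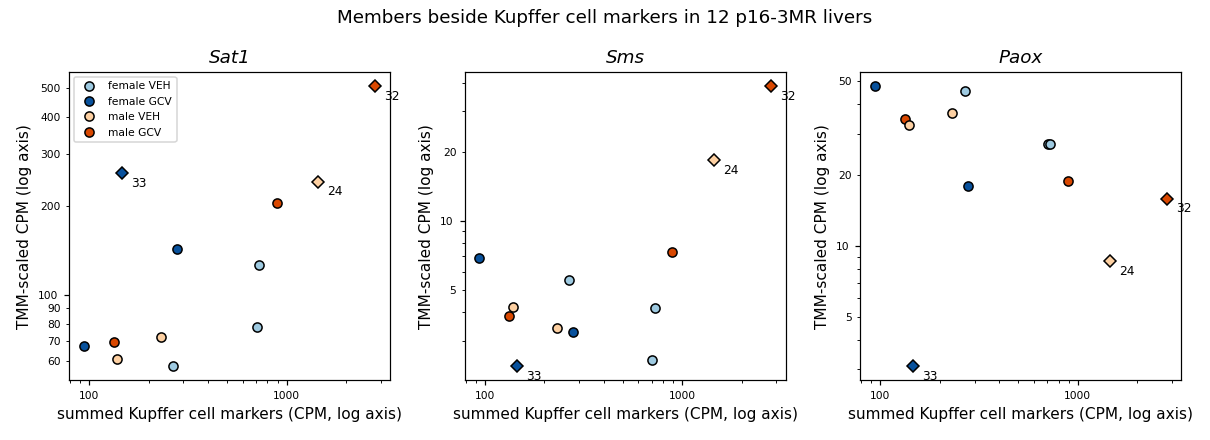
TMM-scaled CPM of Sat1, Sms and Paox against the summed CPM of 5 Kupffer cell markers in 12 p16-3MR livers (log axes), coloured by group. Livers 32 and 24, at 2820 and 1450 CPM of Kupffer markers, had the highest Sms, 38.7 and 18.3 CPM, while liver 33, at 146 CPM, had 258 CPM of Sat1, which was 66.7 CPM on total counts alone.

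Because Sat1 and Sms peaked in the same liver and both lie on the X chromosome, the 250 bases before their RefSeq starts are shown (GRCm38.p6, minus strand, 5′ to 3′). The 2 genes were chosen for display after their values were seen. Capitals mark matches on either strand to CACGTG (E-box, the element bound by Myc and related factors), GGGCGG (GC box), CCAAT or TATAAA. The windows are chrX:155216450-155216699 for Sat1 and chrX:157492288-157492537 for Sms, the latter the more upstream of the starts listed for that gene.
Sat1: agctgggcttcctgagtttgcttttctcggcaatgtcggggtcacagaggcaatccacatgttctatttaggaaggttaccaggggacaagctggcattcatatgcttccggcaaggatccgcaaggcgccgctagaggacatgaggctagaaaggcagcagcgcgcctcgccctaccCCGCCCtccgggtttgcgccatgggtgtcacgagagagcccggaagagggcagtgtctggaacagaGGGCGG
Sms: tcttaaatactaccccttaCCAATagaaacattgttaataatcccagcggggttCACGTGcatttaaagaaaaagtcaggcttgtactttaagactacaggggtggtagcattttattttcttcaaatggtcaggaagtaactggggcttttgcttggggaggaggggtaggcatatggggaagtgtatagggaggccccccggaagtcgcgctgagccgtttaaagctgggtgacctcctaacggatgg
GC box letters were found for Sat1 and not in this Sms window, which held an E-box and a CCAAT box. The other Sms window, chrX:157491369-157491618, held GC boxes and neither of those, so the difference from Sat1 holds for the upstream window alone. Among 32851 RefSeq promoters of the same length, 6.02% held the E-box, 32.7% the GC box, 33.8% CCAAT and 12.4% TATAAA. Of the 10 promoters listed for 8 of the members, 1 held the E-box (Sms), 7 the GC box, 2 CCAAT (Sms and Oaz1) and 0 TATAAA. The GC box promoters were those of Amd1, Oaz2, Odc1 and Sat1, 1 of Sms and both of Paox, whose windows overlap. A match is a description of letters, and no motif contains another. The base composition was 59.6% GC for Sat1 and 47.2% for this Sms window, against a median of 52.4% for all promoters.

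Upstream of both synthases, Odc1 (GRCm38 chr12:17544794-17551505, plus strand), the gene of the enzyme that makes putrescine, was 78.6, 102 and 85.5 CPM in GCV-treated p16-3MR males and 76.4, 49.6 and 51.6 CPM in VEH-treated males. These groups did not overlap, but the log2 fold change of 0.58 (SE 0.45, 95% interval -0.39 to 1.56) had an adjusted p of 1 by edgeR. On total counts alone the groups overlapped, at 79.6 to 184 CPM with GCV and 51.5 to 126 CPM with VEH. With TMM factors, Odc1 was the 1 member of 10 with no overlap between treatments in males, where 6.4% of all genes had none. In females Odc1 was 65.4, 29.4 and 130 CPM with GCV and 78.5, 76.0 and 51.9 CPM with VEH, with complete overlap. Azin1 (GRCm38 chr15:38487427-38519266, minus strand), which protects ornithine decarboxylase by binding antizymes, was 49.7, 37.1 and 127 CPM with GCV and 89.7, 60.8 and 55.5 CPM with VEH in females, and 53.5 to 92.6 CPM in males. In both genes the GCV-treated females 33 and 35 held the lowest and the highest value of all 12 livers.

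Amd1 (GRCm38 chr10:40287458-40302186, minus strand), the decarboxylase that supplies aminopropyl groups to both synthases, lay between 12.4 and 29.4 CPM, again with liver 33 lowest and liver 35 highest. A near-identical copy, Amd2, held 0 to 10 counts per liver, so reads could have been split between them. The antizyme genes were among the steadier members. Oaz1 (GRCm38 chr10:80826656-80829290, plus strand) reached 84.1 CPM at most and 44.9 CPM at the least outside livers 32 and 33, and Oaz2 (GRCm38 chr9:65668001-65690300, plus strand) between 4.63 and 15.0 CPM, with liver 33 lowest for both. Pseudogenes named for Oaz1 and Sms held at most 46 and 23 counts per liver, and Salmon divides reads shared with such copies by estimation, so the Oaz1 and Sms counts are uncertain. Dhps (GRCm38 chr8:85071757-85075162, plus strand), whose enzyme starts hypusine formation and which overlaps Wdr83 on the opposite strand, lay between 2.05 and 6.95 CPM from 9 to 33 counts. Liver 33 held the lowest value of 7 of the 10 members and liver 35 the highest of 4.

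No member passed an adjusted p under 0.05 for GCV against VEH in p16-3MR males by edgeR. No gene of the 21755 did either (0%), and 5 did by DESeq2, none of them a member. At an unadjusted p under 0.05 the count was 0 of 10 members, against 1.91% of all genes. Member log2 fold changes ran from -0.31 (Dhps) to 1.06 (Sat1), with a median of -0.03 beside 0.04 over all genes. The widest 95% intervals, -0.78 to 2.66 for Sms and -0.50 to 2.63 for Sat1, still held changes of more than 4-fold. In p16-3MR females, the contrast that selected Srm, the members' median was 0.10 beside 0.00 over all genes, with a range of -0.49 (Paox) to 1.57 (Srm). The Paox value was -0.07 without liver 33 and -1.55 without liver 35. There 0% of genes passed the adjusted threshold by edgeR and 90 genes by DESeq2, 7.37% had an unadjusted p under 0.05, and 13.3% had groups that did not overlap, as Srm did and no other member. For females minus males in that response, the corresponding shares of all genes were 0% and 3.78%, DESeq2 called 3 genes, and member values ran from -0.82 (Sms) to 1.72 (Srm). The Sms value turned to 0.76 without GCV-treated male 32 and was -2.10 without VEH-treated male 24.

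**Figure D3:**
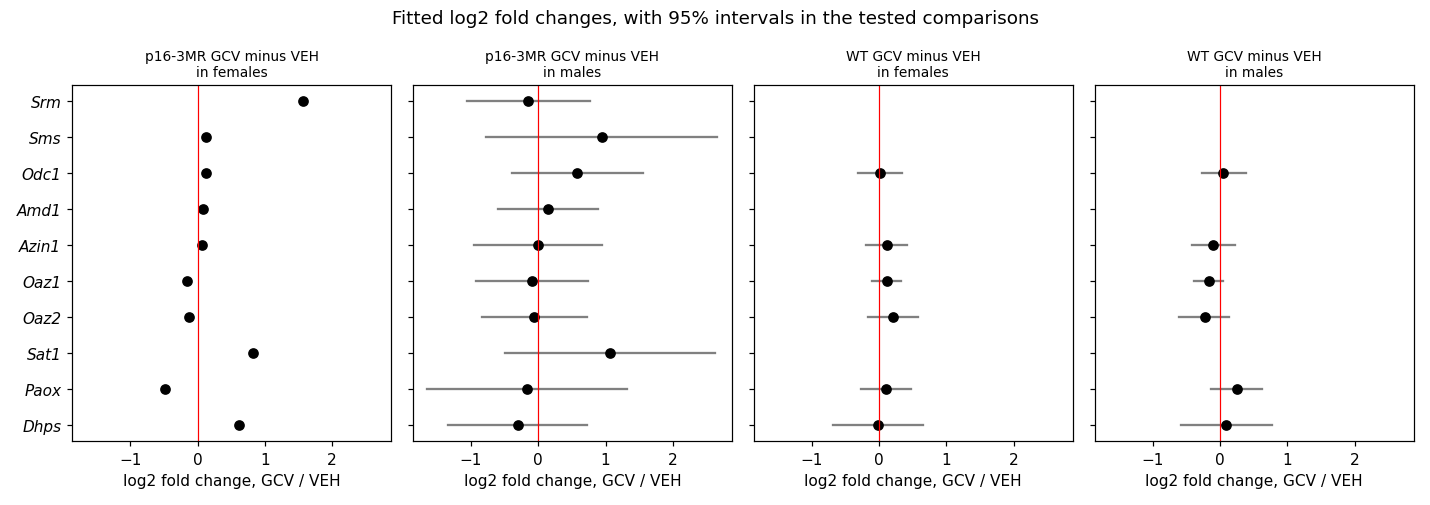
Log2 fold changes of GCV against VEH for the members in 4 comparisons. Points are edgeR estimates and lines are 95% intervals, left out for p16-3MR females, the contrast behind the choice of Srm. Intervals in p16-3MR males include 0, as do those in WT females and males, where the 6 readable members lie between -0.23 and 0.25.

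Females and males of the p16-3MR line were compared over both treatments, 6 livers against 6. Across all genes 66 passed an adjusted p under 0.05 by edgeR (0.303%), 196 by DESeq2, and 7.05% had an unadjusted p under 0.05. No member was called. Sms was the 1 member at an unadjusted p under 0.05, with 2.32 to 6.88 CPM in females (median 3.71) and 3.39 to 38.7 CPM in males (median 5.77). The log2 difference was -1.52 (SE 0.59, 95% interval -2.78 to -0.25, unadjusted p = 0.0224, adjusted p = 0.685, edgeR). The sexes overlapped, and without livers 24, 32 and 33 the difference was -0.04, an alternative chosen after the data were seen. Srm differed by 0.38 (SE 0.30), and by -0.48 among VEH-treated and 1.241 among GCV-treated livers. The pooled Srm difference was 0.69 without VEH-treated male 25 and -0.08 with library totals. These values share the female livers on which Srm was selected and are descriptive.

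In WT mice the steadiest of the 6 readable members was Oaz1, with an SD within groups of 0.11 on the log2 scale. Oaz1 was 633, 682 and 655 CPM in GCV-treated females, 576, 606 and 644 CPM in VEH-treated females, 602, 589 and 595 CPM in GCV-treated males and 572, 697 and 735 CPM in VEH-treated males. Its log2 fold change with GCV was 0.11 in females (SE 0.10, adjusted p = 1) and -0.17 in males (SE 0.10, adjusted p = 0.889). Odc1 lay between 49.8 and 72.4 CPM, with a change of 0.01 in females (95% interval -0.31 to 0.34) and 0.05 in males (-0.27 to 0.38). Azin1 lay between 36.7 and 54.0 CPM, Paox between 36.7 and 74.2 CPM, and Dhps between 3.98 and 11.8 CPM.

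Of the 6 readable members, Oaz2 had the largest difference in response between the WT sexes. It was 22.4, 28.2 and 24.2 CPM in GCV-treated females, 22.0, 26.1 and 16.5 CPM in VEH-treated females, 29.9, 21.7 and 25.3 CPM in GCV-treated males and 30.6, 29.9 and 29.4 CPM in VEH-treated males. The female change exceeded the male change by 0.44 on the log2 scale (SE 0.26, 95% interval -0.09 to 0.97, adjusted p = 0.982, edgeR). Its difference between females and males was -0.26 (SE 0.13, 95% interval -0.52 to 0.01, adjusted p = 0.276). Neither passed the adjusted threshold, and the sex difference was 0.08 with library totals, -0.47 in VEH-treated livers alone and -0.04 in GCV-treated livers alone.

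**Figure D4:**
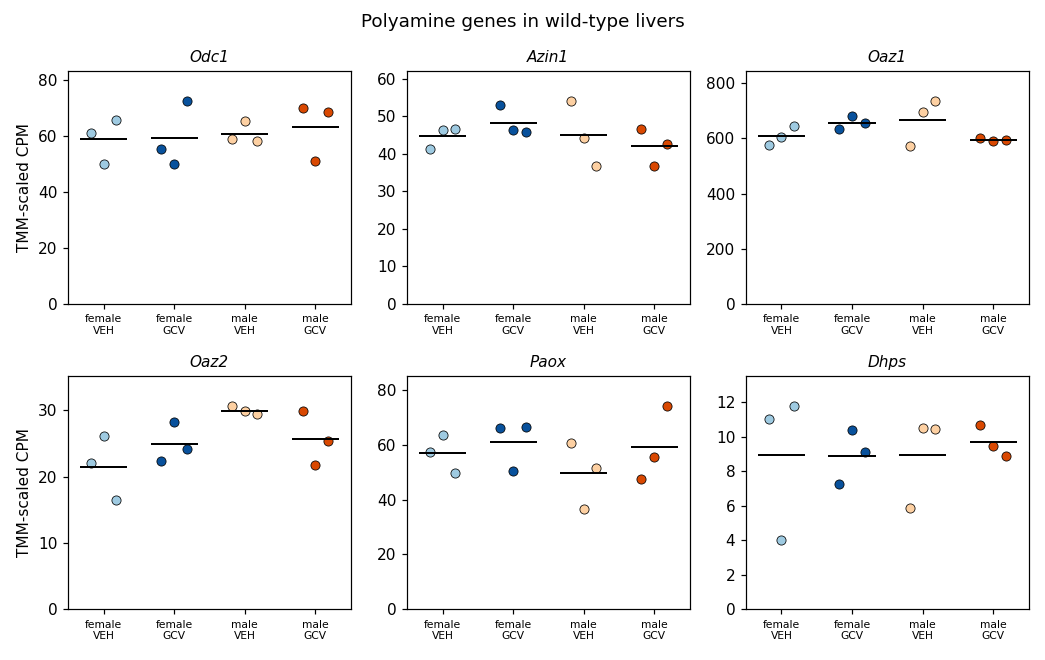
TMM-scaled CPM of the 6 readable members in 12 WT livers, by sex and treatment. Points are livers and bars are means of 3. Treatments overlapped in each sex for all 6 genes, and Oaz1 stayed between 572 and 735 CPM.

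No WT member was called in any of the 4 comparisons by edgeR or by DESeq2, and none had an unadjusted p under 0.05. The shares of all genes called by edgeR were 0.00791% for GCV in females, 0% for GCV in males, 0.00791% for the difference between these and 7.94% for females against males, where 1004 genes became 3652 with library totals. DESeq2 called 17, 1, 1 and 1039 genes. With 1 liver left out the edgeR counts for the treatment comparisons, 1, 0 and 1 genes, ran from 0 to 12 (highest without VEH-treated female 5), 0 to 46 and 0 to 17 (both highest without VEH-treated male 1), with 0 members among them. At an unadjusted p under 0.05 they were 4.56%, 5.06%, 4.45% and 20.1%. Treatments overlapped for each member, whereas 10% of all genes had no overlap in females and 8.85% in males. Median log2 fold changes of the 6 members were 0.11 for GCV in females and -0.02 in males, beside 0.00 over all genes in each.

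The livers of the 2 tables differed in spread. The SD within groups on the log2 scale was 0.59 for Odc1 in p16-3MR livers and 0.22 in WT livers. It was 0.55 and 0.18 for Azin1, 0.46 and 0.11 for Oaz1, 0.40 and 0.22 for Oaz2, 1.18 and 0.28 for Paox, and 0.39 and 0.49 for Dhps. Genes with a mean of at least 10 counts had a median SD of 0.61 and 0.25, so the wider spread in p16-3MR livers was not particular to these genes, and Dhps went the other way. Oaz1 also differed in level, with a mean log2 CPM of 5.90 in the p16-3MR table and 9.30 in the WT table. Among 10184 genes matched between tables that were normalized separately, 93 had a larger difference in this direction, and no test was made. The study's methods describe 1 Salmon index for its libraries, and the difference in level was not tested further.

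The rest of the pathway was read from a list of 27 genes for arginine and ornithine supply, methionine and S-adenosylmethionine metabolism, hypusine formation, back-conversion and transport, all found in the p16-3MR table and 14 of them readable in WT. In p16-3MR livers 0 of 27 were called by edgeR for GCV in males or for females against males. At an unadjusted p under 0.05 there were 0 of 27 for GCV in males, against 1.91% of all genes, and 2 of 27 for females against males, both on the lower side in females, against 7.05% of all genes. These were Azin2 and Atp13a2, named after their values were seen. Atp13a2, a lysosomal polyamine exporter, was 24 CPM in liver 32 and 18.4 CPM in liver 24 and 2.69 to 12.7 CPM elsewhere. Its high values fell in the livers with the most Kupffer, endothelial and stellate markers, and the part of cell composition was not tested. Azin2 held 0 to 8 counts per liver.

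In WT livers 2 of 14 pathway genes were called between the sexes, where 7.94% of all genes were. Mat1a, which makes S-adenosylmethionine in adult liver, was higher in females, at 2773 to 3653 CPM (median 3180) against 1717 to 2215 CPM (median 1981) in males, with no overlap. The log2 difference was 0.68 (SE 0.07, adjusted p = 3.52e-07, edgeR). Eif5a, the gene of the protein that receives hypusine, was lower in females, at 227 to 241 CPM (median 233) against 263 to 305 CPM (median 294), a log2 difference of -0.29 (SE 0.07, adjusted p = 0.0094). With library totals in place of TMM factors the Eif5a difference was 0.043 while the median gene shifted by 0.35, so its direction is relative to the TMM scale. Eif5a was not called within either treatment alone, at -0.26 in VEH-treated livers (adjusted p = 0.166, edgeR) and -0.32 in GCV-treated livers (adjusted p = 0.0931, edgeR). In p16-3MR livers the sex difference was 0.91 for Mat1a (SE 0.53, adjusted p = 0.712), and 0.37 without livers 24, 32 and 33. Mat1a was lowest in male livers 32 and 24, where the summed hepatocyte markers were also lowest, at 135.5 and 464.5 CPM of Mat1a. Eif5a in p16-3MR livers differed by -0.13 (SE 0.28, adjusted p = 0.986), with -0.35 to -0.001 when 1 liver was left out and -0.59 with library totals.

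None of the 14 was called for GCV in WT mice by edgeR with the 12 livers fitted together. At an unadjusted p under 0.05 there were 2 of 14 in females (Oat and Mat1a, both on the higher side with GCV), against 4.56% of all genes, and 0 of 14 in males, against 5.06%. Mat1a had a log2 fold change of 0.28 in females (SE 0.10, adjusted p = 0.983, edgeR). Oat, the mitochondrial enzyme that interconverts ornithine and glutamate semialdehyde, had the smallest p and is named after its values were seen. It was 521, 516 and 631 CPM in GCV-treated females against 311, 479 and 394 CPM in VEH-treated females, and 402, 363 and 378 CPM against 400, 480 and 491 CPM in males. The female groups did not overlap, as for 10% of all genes, and the log2 fold change was 0.50 (SE 0.13, unadjusted p = 0.00128, adjusted p = 0.424, edgeR). Oat was called with the sexes fitted alone (adjusted p = 0.0487, edgeR) and with the replicate number as a block (adjusted p = 9.96e-04, edgeR). The female change exceeded the male change by 0.76 (SE 0.19, unadjusted p = 6.38e-04, adjusted p = 0.632, edgeR). That difference was called with the replicate block, at 0.77 (adjusted p = 2.98e-04, edgeR). The replicate numbers were not taken as pairs. In WT females, deviations of same-numbered livers from their group means correlated at -0.045, -0.057 and 0.002. The block also raised the count of all genes called from 1 to 106 for GCV in females and from 1 to 79 for the difference. The annotation places Oat over part of Fgfr2 on the same strand. In p16-3MR livers Oat ranged from 23.2 to 337 CPM, with changes of -0.81 in females (SE 0.97) and 0.06 in males (SE 0.96). Single livers set these values, which were -2.245 in females without liver 35 and -2.002 in males without liver 34, and ran up to -0.42 and 0.67 without others.

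**Figure D5:**
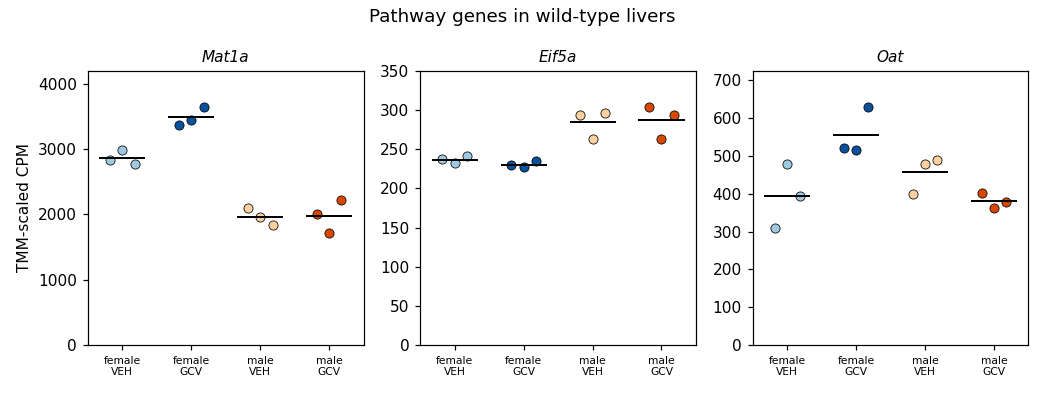
TMM-scaled CPM of Mat1a, Eif5a and Oat in 12 WT livers, by sex and treatment. Points are livers and bars are means of 3. Mat1a lay at 2773 to 3653 CPM in females and 1717 to 2215 CPM in males, and Oat at 516 to 631 CPM in GCV-treated females and 311 to 479 CPM in VEH-treated females.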

How the data were processed

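Liver RNA of 12 p16-3MR and 12 WT mice was measured by Smart-3SEQ. Per the labels, reads were checked with FastQC 0.11.9, trimmed with Trim Galore 0.6.10 and quantified with Salmon 1.10.3 on mm10. The authors deposited estimated counts of each gene as whole numbers, not scaled for library size, after genes with fewer than 3 reads were left out. Of 21755 identifiers, 21698 had a symbol in GENCODE vM21 (GRCm38), and 10496 of 12643 WT labels fitted 1 symbol. Counts were fitted per table with edgeR 4.0.16 in R 4.3.3 (TMM, 1 mean per group over 12 livers, quasi-likelihood test, Benjamini-Hochberg over all genes, calls under 0.05). Log2 CPM used a prior count of 2. On total counts alone, without TMM factors, a floor of 3 counts equalled 0.419 to 0.973 CPM. With its TMM factor, 3 counts in GCV-treated female 33 were 2.32 CPM. The floor, like any counting interval, covers counting error only. Alternatives were DESeq2 1.42.0, its size factors, filterByExpr, each sex alone, each treatment alone for the sex comparison, each liver left out, a WT replicate block and p16-3MR symbols for the WT labels. Library totals and the removal of 3 livers were added after the data were seen. The members, lists and tests were chosen with earlier results of these data known. Named genes were the members, called pathway genes and the 5 genes closest to Srm. Azin2, Atp13a2 and Oat were named after their values were seen. The code was tested on simulated data. Promoter sequences are from RefSeq, with no entry used for Srm and Azin1.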

Additional observations from a re-analysis of the deposited data

How the results depend on the processing

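The number of members called stayed at 0 in all 8 comparisons when single livers were left out, with DESeq2's size factors and with filterByExpr, in the treatment comparisons with each sex alone, in the sex comparisons with each treatment alone, and in p16-3MR without livers 24, 32 and 33. Over all settings 1084 member log2 fold changes stayed within 1 SE of the reported value and 58 moved further without passing the threshold. The exceptions were DESeq2, with a count of 1 in the contrast that selected Srm, from which nothing is read, and library totals, which called 3 WT members as higher in females (Azin1 0.44, Oaz1 0.33 and Paox 0.46 on the log2 scale, where the median gene shifted by 0.35). Pathway genes called for WT GCV in females numbered 1 (Oat) with each sex alone (adjusted p = 0.0487) and 1 with the replicate block (adjusted p = 9.96e-04), and for the difference between WT sexes 1 with the replicate block (Oat, adjusted p = 2.98e-04). For WT females against males the count was 1 (Mat1a) in VEH-treated livers alone, 2 (Mat1a and Oat, without Eif5a) in GCV-treated livers alone and 2 to 3 with single livers left out. Eif5a there turned to 0.043 with library totals. The cause was not tested.

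WT replicate numbers recur in both treatments, but deviations of same-numbered livers correlated at -0.07 to 0.28, with only 2 of 6 above 0.1, so the numbers were not taken as pairs. The block moved genes called from 1 to 106 for GCV in females, 0 to 68 in males and 1 to 79 for their difference, and no member was among them. It could not be fitted for females against males. Low counts limit Sms, Paox, Oaz2 and Dhps, whose lowest p16-3MR counts, 3, 4, 6 and 9, were all those of GCV-treated female 33. That liver had 5005760 counts in total, 64% of them from mitochondrially encoded genes. Dhps held at most 33 counts in any p16-3MR liver.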
